A study of Mus musculus with 12 samples.

Results

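Haptoglobin (Hp) and 8 other genes of acute inflammation, Saa3, Lcn2, S100a8, S100a9, Il1b, Il6, Tnf and Ptgs2, were followed across mouse tumors that carried or lacked a light-controlled cytokine module. These 9 of the 32288 rows of each count table were chosen by name, and Hp was selected on its own values: it was higher in every light library of P815-IFNG tumors than in every light library of P815-M tumors. P815 is a fast-growing mastocytoma line of DBA/2 mice. In P815-IFNG cells, a single-cell clone, the EF-1α promoter drives the light-sensitive transactivator GAVPO, and 5×UAS drives murine Ifng and Cxcl10 together with a Gaussia luciferase. P815-M cells, also a single-cell clone, lack that module, and both lines carry mRuby and a firefly luciferase. Each adult DBA/2 mouse bore a single subcutaneous tumor, and 7 days after injection the tumors were lit with blue light on a cycle of 12 h per day for 6 days or were kept dark, which gave 4 groups (P815-IFNG light, P815-IFNG dark, P815-M light and P815-M dark) of 3 whole-tumor mRNA libraries each. The question was whether genes of the acute-phase and myeloid inflammatory response differed with light, with the module, or with both.

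All values started from gene-level read counts. Levels are given as CPM, counts per 1000000 of a library total scaled by the trimmed mean of M-values (TMM). The total was 2211234 to 2946792 counts in 10 libraries but 41473500 and 42338096 counts in the third P815-IFNG light and the third P815-IFNG dark library, which are called the deep libraries and are shown apart. The deep pair also differed in kind. mt-Nd6 took 3.56% and 3.85% of the mitochondrial coding counts there against 29.0% to 47.9% in the other 10, and a list of 9 mast cell markers summed to 9009 and 6958 CPM against 1396 to 2353 CPM. The transactivator matched the labels, with 392 to 1784 CPM in the 6 P815-IFNG libraries and at most 1.65 CPM in the 6 P815-M libraries. Detection was taken to begin at 3 counts, the floor, which is 0.931 to 1.56 CPM in the 10 libraries and 0.0670 to 0.0694 CPM in the deep pair.

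Acute-phase proteins are secreted when inflammatory cytokines reach the liver, fat or other tissues. IL-1β, TNF and IL-6 act through NF-κB, C/EBP and STAT3 on the promoters of genes such as Hp, Saa3 and Lcn2, and the S100A8 and S100A9 proteins are made chiefly by neutrophils and monocytes. Ptgs2 encodes the inducible cyclooxygenase that opens prostaglandin synthesis. In a bulk tumor library, a change in the number of cells that make such a transcript and a change in the transcript per cell cannot be told apart.

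The RefSeq promoter table of build GRCm38.p6 held 8 of the 9 genes, each as a window from 250 bases before to 50 bases after the transcript start. On both strands, a C/EBP site of the form TTGCNNAA was found in 5 of the 8 (Saa3, Lcn2, S100a9, Il6 and Ptgs2) and in 10.8% of all 27025 promoters of this length. The TATA box letters TATAAA were found in 4 of the 8 (S100a8, S100a9, Il1b and Tnf) and in 14.2% of all promoters. The matches of S100a8, Il1b and Tnf lie between bases -31 and -24 before the start. That of S100a9 spans bases 1 to 6 from the annotated start, so it is not upstream of it. The AP-1 site TGANTCA and an NF-κB site were each found in 1 of the 8, Il6, against 7.93% and 8.18% of all promoters, and the interferon-γ activated sequence TTCNNNGAA in 0 of the 8 against 8.47%. No matches overlapped one another in these 8 windows. The 4 promoters printed here belong to Saa3, the member with the highest level, and to the members of the cytokine and prostaglandin arms that were at or above 3 counts in most libraries; each runs 5′ to 3′ on the strand of its gene, with the matched letters in capitals. They lie at chr7:46715627-46715926 on the minus strand (Saa3), chr5:30012864-30013163 on the plus strand (Il6), chr17:35201958-35202257 on the minus strand (Tnf) and chr1:150099781-150100080 on the plus strand (Ptgs2).
Saa3: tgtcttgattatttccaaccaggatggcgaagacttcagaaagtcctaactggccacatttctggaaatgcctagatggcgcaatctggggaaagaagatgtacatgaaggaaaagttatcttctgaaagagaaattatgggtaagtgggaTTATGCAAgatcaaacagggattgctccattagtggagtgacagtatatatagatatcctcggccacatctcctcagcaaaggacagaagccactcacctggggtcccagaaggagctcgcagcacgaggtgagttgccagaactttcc
Il6: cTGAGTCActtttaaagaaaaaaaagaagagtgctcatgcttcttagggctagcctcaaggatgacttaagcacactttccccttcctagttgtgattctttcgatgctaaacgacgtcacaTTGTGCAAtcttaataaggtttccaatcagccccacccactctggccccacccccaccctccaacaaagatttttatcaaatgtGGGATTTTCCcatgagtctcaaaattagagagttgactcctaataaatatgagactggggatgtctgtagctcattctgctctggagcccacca
Tnf: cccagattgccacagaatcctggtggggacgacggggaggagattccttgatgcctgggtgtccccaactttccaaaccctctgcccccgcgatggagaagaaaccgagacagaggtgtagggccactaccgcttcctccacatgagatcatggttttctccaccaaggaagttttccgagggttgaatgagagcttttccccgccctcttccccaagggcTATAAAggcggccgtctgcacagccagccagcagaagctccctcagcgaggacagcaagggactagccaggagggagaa
Ptgs2: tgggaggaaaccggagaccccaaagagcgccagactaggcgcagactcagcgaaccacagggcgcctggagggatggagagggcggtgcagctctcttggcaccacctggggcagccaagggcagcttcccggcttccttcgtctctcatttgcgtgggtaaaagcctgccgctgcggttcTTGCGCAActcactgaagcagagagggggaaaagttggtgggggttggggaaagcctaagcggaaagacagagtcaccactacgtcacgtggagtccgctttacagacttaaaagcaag
The C/EBP match spans bases -99 to -92 before the Saa3 start, -128 to -121 before the Il6 start and -69 to -62 before the Ptgs2 start, and the NF-κB match of Il6 spans -44 to -35. A match describes these letters and shows no binding.

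Per length of exon, the order of the mean levels over the 10 libraries was Saa3 at 13.0 CPM per kb, Hp at 5.22, Tnf at 2.85, Ptgs2 at 2.17, Il6 at 1.08, Il1b at 0.683, Lcn2 at 0.207, S100a8 at 0.169 and S100a9 at 0.0857 CPM per kb. Saa3 and Ptgs2 were at or above 3 counts in 10 of the 10 libraries, Tnf in 9, Hp in 8, Il6 in 7, Il1b in 3, Lcn2 and S100a8 in 1 each, and S100a9 in 0. The levels of neighbours in this order overlapped across libraries. All 9 genes passed the test's filter of 10 counts in all, but S100a8 and S100a9 passed it only through the deep libraries. No fold change is given for Lcn2, S100a8 and S100a9 outside the deep pair.

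**Figure D1:**
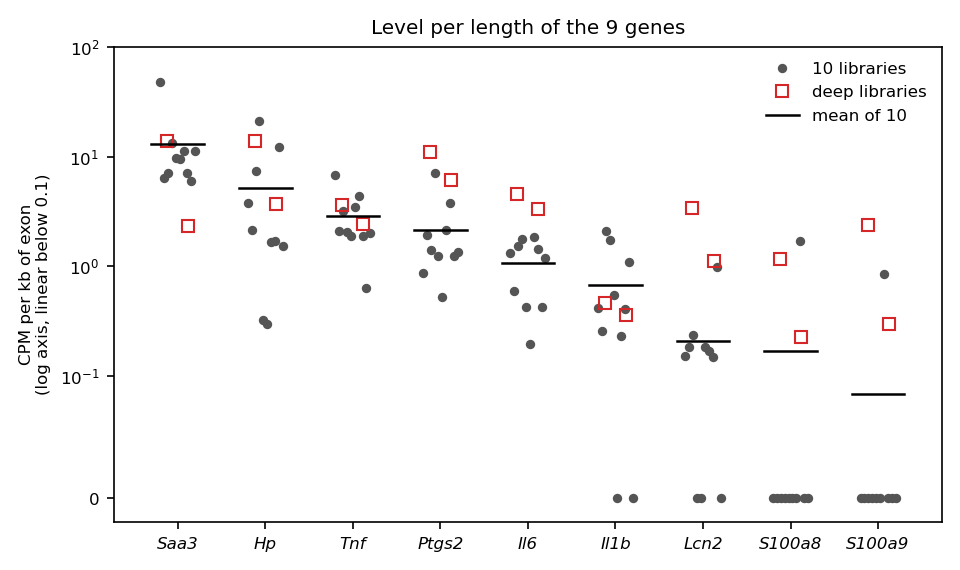
Level of each gene per kb of exon (CPM per kb, log axis, linear below 0.1) in the 10 libraries (points), their mean (line) and the 2 deep libraries (open squares). Saa3 has the highest mean, 13.0 CPM per kb, and S100a8 and S100a9 sit at 0 in 9 of the 10 libraries each.

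Hp (GRCm38 chr8:109575128-109579172, minus strand, 6 exon blocks of 1606 bases) encodes haptoglobin, the plasma protein that binds free hemoglobin. Its level was 6.03 and 3.42 CPM in the P815-IFNG light libraries and 22.5 CPM in the deep one. In P815-IFNG dark it was 11.8 and 33.8 CPM, with 5.92 CPM in the deep library. P815-M light libraries held 0.519, 0.479 and 2.68 CPM, from 1, 1 and 6 counts, and P815-M dark libraries held 2.73, 19.8 and 2.47 CPM. The P815-IFNG light values lay above every P815-M light value, which is how Hp was selected and is not a result, while in each of the other 3 comparisons the groups overlapped.

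The fitted log2 difference of Hp between P815-IFNG light and P815-M light was 2.99 (SE 1.17), or 1.88 (SE 1.04) in the 10 libraries alone. In these 10, the log2 difference between P815-IFNG light and dark was -2.25 (SE 0.82), so dark was higher, whereas the deep light library held 3.803 times the level of the deep dark library (95% counting interval 3.32 to 4.37). The fit over all 12 libraries gave -0.64 (SE 0.82), and it turned to 0.15 without P815-IFNG light replicate 2 and to 0.26 without P815-IFNG dark replicate 2. P815-M tumors had a log2 difference between light and dark of -2.63 (SE 1.08), which was -1.03 without P815-M dark replicate 2. These are descriptions with no test. The values of the dark groups had not been used in choosing Hp. There P815-IFNG exceeded P815-M by 1.00 on the log2 scale (SE 0.76, Benjamini-Hochberg adjusted p = 0.572 in the quasi-likelihood test of edgeR). The exact permutation test used the 6 dark libraries only and gave p = 0.3, two-sided. The depth term of the fit also drew on the P815-IFNG light libraries, so the fit was not free of the values behind the choice. Without P815-IFNG light replicate 3 the fitted difference was 1.52. Without P815-IFNG dark replicate 2 this difference was -0.25.

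**Figure D2:**
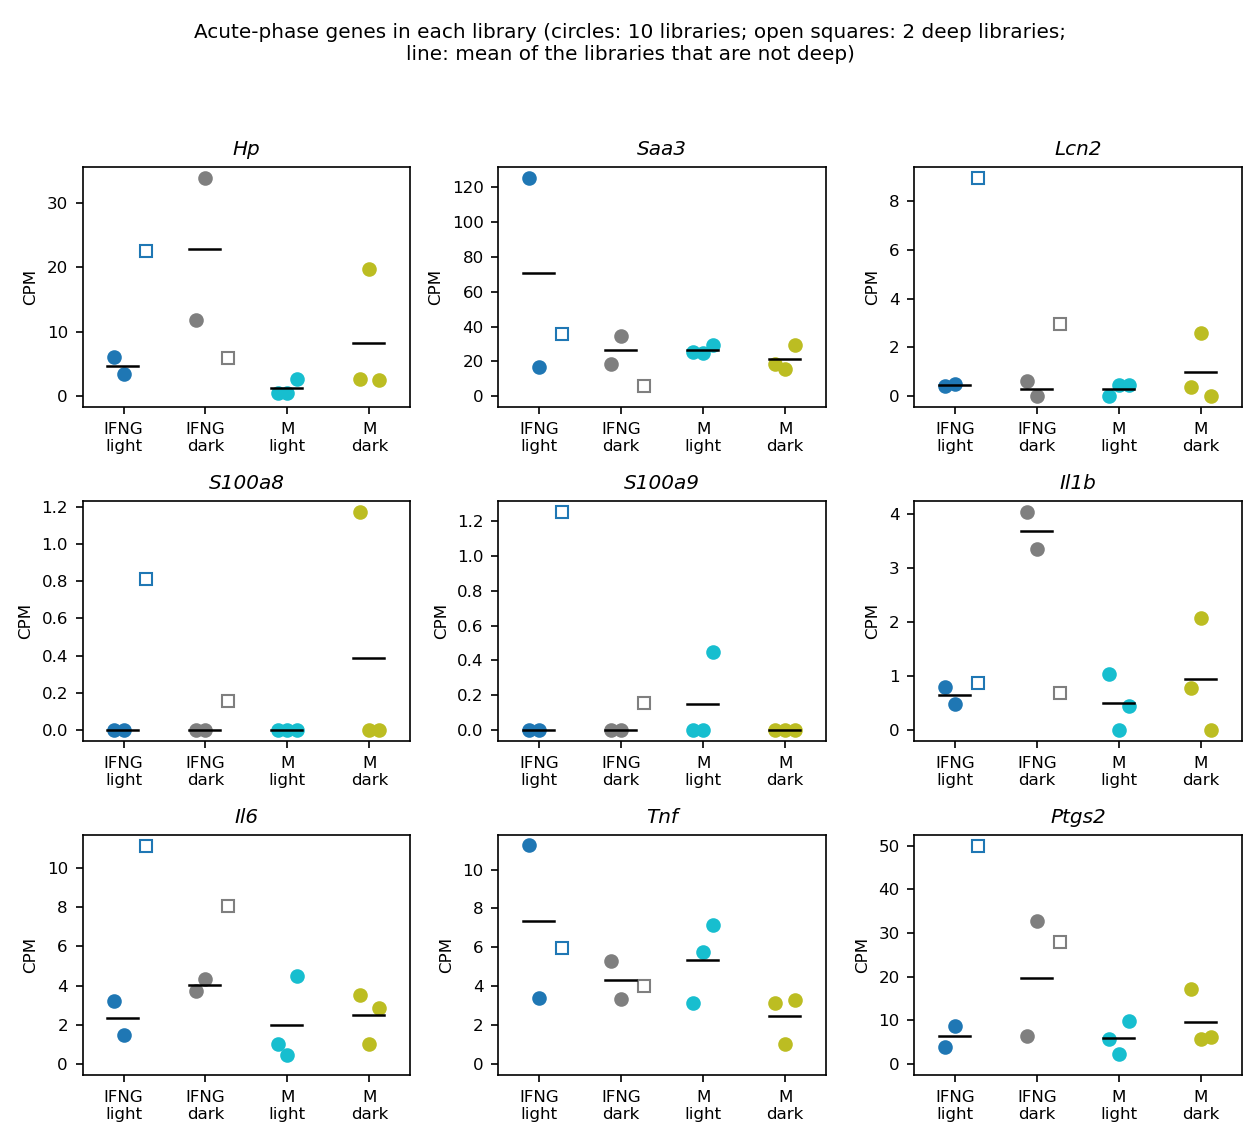
Level of each of the 9 genes (CPM, linear axis from 0) in every library by group; circles are the 10 libraries, open squares the deep libraries and lines the mean of the libraries that are not deep. The deep light square lies above the deep dark square for every gene, and Saa3 reaches its highest value, 125 CPM, in a P815-IFNG light library.

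Adipocytes are a known source of haptoglobin, and a list of 9 adipocyte markers was set beside Hp, with no correlation computed. Their summed level in P815-IFNG light was 38.6 and 12.2 CPM, with 160 CPM in the deep library, and in P815-IFNG dark it was 263 and 375 CPM, with 29.6 CPM in the deep library. In P815-M tumors the sum was 7.27, 6.70 and 27.7 CPM in light and 18.0, 50.5 and 0.823 CPM in dark. The library with the most Hp, P815-IFNG dark replicate 2, also had the highest marker sum, the 2 libraries with the least Hp had 2 of the 3 lowest sums, and within the deep pair both quantities were higher in light. Elsewhere Hp hardly differed while the sum did. P815-M dark replicate 3, dark replicate 1 and light replicate 3 held 2.47, 2.73 and 2.68 CPM of Hp at sums of 0.823, 18.0 and 27.7 CPM. All 9 markers had a higher fitted level in P815-IFNG than in P815-M tumors, in light (median log2 difference 2.80, 0 called) and in dark (median 3.36, Cidec and Pck1 called, which act in lipid droplets and in glyceroneogenesis). Car3, Cfd and Fabp4, the most abundant of the list, averaged 27.8, 18.6 and 12.2 CPM in the 10 libraries. The list of 7 hepatocyte markers summed to 48.7 to 113 CPM in the 10 libraries, of which Apoh averaged 64.2 CPM and Apoa2 19.1 CPM, while Ttr and Fgb were at 0 counts and Alb had 0 to 3 counts. That sum was 3.98 CPM in the deep light and 3.996 CPM in the deep dark library. In the other P815-IFNG libraries it was 61.5 and 109 CPM in light and 48.7 and 66.7 CPM in dark. The part of fat tissue in the Hp differences was not tested.

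**Figure D3:**
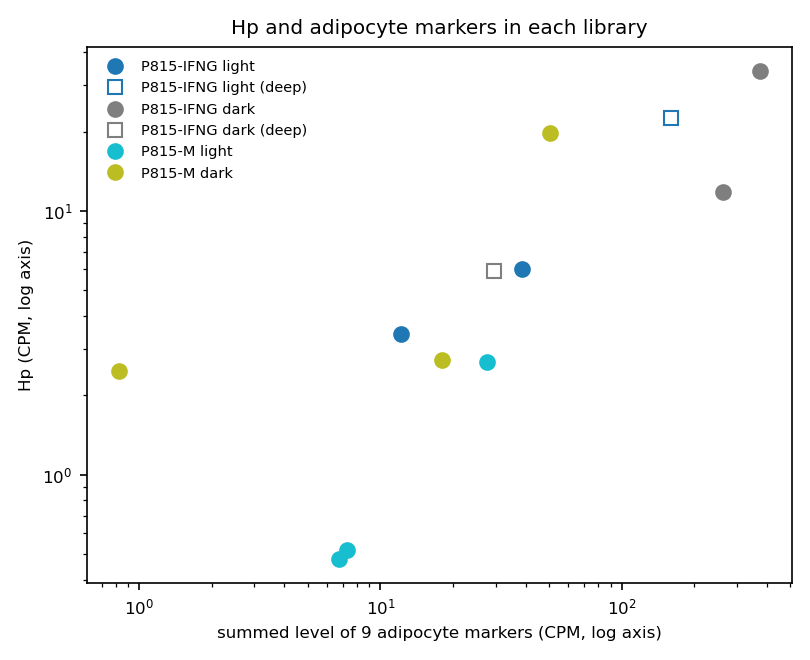
Hp level (CPM, log axis) against the summed level of 9 adipocyte markers (CPM, log axis), 1 point per library, with open squares for the deep libraries. The 4 libraries with the highest Hp, from 11.8 to 33.8 CPM, have the 4 highest marker sums, from 50.5 to 375 CPM.

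Saa3 (chr7:46711998-46715700, minus strand, 4 exon blocks of 2606 bases) encodes a serum amyloid A made outside the liver, in macrophages and fat among other tissues. Its level in P815-IFNG light was 125 and 16.6 CPM, with 36.04 CPM in the deep library. P815-IFNG dark libraries held 18.6 and 34.9 CPM, with 6.14 CPM in the deep library. P815-M libraries lay within 24.9 to 29.5 CPM in light and 15.6 to 29.6 CPM in dark. P815-IFNG light replicate 1 stood above all other libraries and replicate 2 of the same group below all but 2 of them, so the light and dark groups overlapped in both lines.

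Fitted over the 12 libraries, the log2 difference of Saa3 between light and dark in P815-IFNG tumors was 1.84 (SE 0.44, adjusted p = 0.162 in edgeR). It was 1.42 (SE 0.58) in the 10 libraries, and the deep light library held 5.87 times the deep dark level (95% counting interval 5.16 to 6.70). Whether it passed depended on the settings: without P815-IFNG light replicate 2 the difference was 2.38 with an adjusted p of 2.93e-04 in edgeR's quasi-likelihood test, and it was also called with all 12 libraries under ComBat-seq (2.03, adjusted p = 1.54e-05 in edgeR) and with no filter on low counts (1.83, adjusted p = 3.15e-12 in edgeR). It was not called without the depth term (1.60) or in the 10 libraries (adjusted p = 0.418 in edgeR). Nor was it called with filterByExpr (adjusted p = 0.271 in edgeR) or under DESeq2 (adjusted p = 0.0714 in DESeq2). Without P815-IFNG light replicate 1 the difference was 1.00 (adjusted p = 0.829 in edgeR). The exact permutation test over the 6 P815-IFNG libraries gave p = 0.4, two-sided. Against P815-M light, P815-IFNG light was higher by 1.63 on the log2 scale (SE 0.49, adjusted p = 0.164 in edgeR, exact permutation p = 0.7, two-sided). This difference passed the test without P815-IFNG light replicate 2 (2.33, adjusted p = 2.32e-04 in edgeR). The light effect was larger in P815-IFNG than in P815-M tumors by 1.52 (SE 0.65, adjusted p = 0.812 in edgeR). In P815-M tumors light and dark differed by 0.32 (SE 0.48), and the dark groups of both lines differed by 0.11 (SE 0.49, adjusted p = 0.961 in edgeR), a value that turned to -0.40 without P815-IFNG dark replicate 2.

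P815-IFNG light replicate 1, where Saa3 was highest, also had the highest Ifng and Cxcl10 levels, 14.9 and 39.0 CPM, against at most 2.08 CPM of Ifng and 8.31 CPM of Cxcl10 in any other library. Replicate 2 of that group, with 16.6 CPM of Saa3, had 1.95 CPM of Ifng and 7.32 CPM of Cxcl10. The deep light library, with more Saa3 (36.04 CPM), had less of both, 1.76 CPM of Ifng and 2.45 CPM of Cxcl10. P815-IFNG dark replicate 2 held 34.9 CPM of Saa3 with 1.01 CPM of Ifng and 3.69 CPM of Cxcl10. A relation of Saa3 to these levels was not tested. The knock-in sequence of the module was also counted on its own, at 4.42 and 2.93 CPM in P815-IFNG light and 5.28 CPM in the deep light library. In P815-IFNG dark it was 2.79 and 2.01 CPM, with 2.81 CPM in the deep library, and in P815-M libraries at most 0.781 CPM. The module shares sequence with the endogenous Ifng and Cxcl10 genes, and how reads from the shared stretches were divided was not tested. Saa3 transcripts share 108 of 2602 windows of 50 bases (4.15%, either strand) with transcripts of 519 other genes, so reads from those stretches are uncertain. Of these windows, 9 are shared with 1 gene among Saa1, Saa2 and Saa4. Saa1 and Saa2 each had 0 to 3 counts in the 10 libraries.

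Lcn2 (chr2:32384633-32388252, minus strand) encodes lipocalin 2, which binds bacterial siderophores. It had 0 to 5 counts in each of the 10 libraries, with the 5 in P815-M dark replicate 2. The deep light library held 386 counts (8.94 CPM) and the deep dark library 132 counts (2.95 CPM), a ratio of 3.03 (95% counting interval 2.48 to 3.72). Outside the deep pair, no difference between groups was detectable at this depth.

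S100a8 (chr3:90668978-90670035, plus strand) and S100a9 (chr3:90692632-90695721, minus strand) encode the subunits of calprotectin, a calcium- and metal-binding protein of neutrophils and monocytes. S100a8 was at 0 in 9 of the 10 libraries, with 3 counts in P815-M dark replicate 1, and S100a9 was at 0 in 9 of the 10, with 1 count in P815-M light replicate 3. In the deep pair, S100a8 had 35 counts in light and 7 in dark, a ratio of 5.18 (95% counting interval 2.27 to 13.8), and S100a9 had 54 and 7, a ratio of 7.999 (3.63 to 20.8). Both subunits were thus higher in the deep light library, at 0.810 and 1.25 CPM, levels under the floor of the other libraries or near it. Defining neutrophil markers were as scarce: Ltf, Stfa2l1 and Wfdc21 were at 0 in the 10 libraries, Ly6g had at most 2 counts in them and 0 in each deep library, and Retnlg had 0 to 20 counts, with 112 in the deep light and 2 in the deep dark library. Il1r2, also listed, was higher in the deep light library as well, at 704 against 300 counts in the deep dark one. Mmp8, Camp and Mpo were lower in the deep light library, at 33 against 49, 0 against 4 and 0 against 2 counts. The whole list of 20 neutrophil markers had a sum of 120 to 221 CPM in the 10 libraries, while the deep light and dark libraries held 663 and 460 CPM, chiefly Ctsg and Cxcr2, which averaged 91.0 and 37.0 CPM in the 10. No gene of the list was called in any comparison. The mast cell list was higher in the deep pair too, at 9009 CPM in light and 6958 CPM in dark. The shares of neutrophils and of mast cells in these values were not tested.

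Il1b (chr2:129364570-129371139, minus strand) encodes interleukin 1β. Its level was 0.804 and 0.488 CPM in P815-IFNG light and 4.03 and 3.35 CPM in P815-IFNG dark, from 2, 1, 13 and 10 counts. The deep libraries held 0.880 CPM in light and 0.692 CPM in dark, a ratio of 1.27 whose 95% counting interval, 0.770 to 2.11, included 1. P815-M libraries held at most 1.04 CPM in light and 2.08 CPM in dark. Both of the P815-IFNG dark libraries with a total under 10000000 counts lay above every other library, while the deep dark library lay below the light libraries of its line except replicate 2. The fitted log2 difference between P815-IFNG light and dark was -1.20 (SE 0.97, adjusted p = 0.804 in edgeR). It was -2.41 (SE 1.18) in the 10 libraries, -2.47 without P815-IFNG light replicate 3 and -0.74 without P815-IFNG light replicate 2. Between the dark groups P815-IFNG was higher by 1.64 (SE 1.05, adjusted p = 0.481 in edgeR), with values of 1.02 without P815-M dark replicate 3 and 2.79 without P815-M dark replicate 2. Exons of Il1b overlap 25 bases of the antisense gene Il1bos, which had 0 to 4 counts, so low Il1b counts are uncertain.

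Il6 (chr5:30013114-30019981, plus strand) encodes interleukin 6, the main inducer of hepatic acute-phase genes. P815-IFNG libraries held 3.22 and 1.46 CPM in light and 3.72 and 4.36 CPM in dark, with 11.1 and 8.04 CPM in the deep light and dark libraries. P815-M libraries held 1.04, 0.479 and 4.47 CPM in light and 3.51, 1.04 and 2.88 CPM in dark. The dark groups of the lines did not overlap, with P815-IFNG higher, yet the fitted log2 difference was 0.42 (SE 0.66, adjusted p = 0.820 in edgeR), and the exact permutation test, two-sided, gave p = 0.1, the smallest it can give for 3 against 3. Light and dark differed by -0.17 (SE 0.57, adjusted p = 0.973 in edgeR) in P815-IFNG and by -0.31 (SE 0.72, adjusted p = 0.916 in edgeR) in P815-M tumors. The direction was not stable: it was 0.13 in P815-IFNG without light replicate 2, and 0.15 and 0.014 in P815-M without light replicate 2 and without dark replicate 1. In the deep pair Il6 was 1.39 times higher in light (95% counting interval 1.21 to 1.59).

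Tnf (chr17:35199381-35202007, minus strand) encodes tumor necrosis factor. P815-IFNG libraries held 11.3 and 3.42 CPM in light and 5.28 and 3.35 CPM in dark, with 5.97 and 3.996 CPM in the deep pair. P815-M libraries held 3.11, 5.75 and 7.16 CPM in light and 3.12, 1.04 and 3.29 CPM in dark. The mean was higher in light in both lines but the values overlapped with dark, and every P815-IFNG dark library lay above every P815-M dark library. The fitted log2 difference between light and dark was 0.70 (SE 0.50, adjusted p = 0.756 in edgeR) in P815-IFNG and 1.07 (SE 0.60, adjusted p = 0.487 in edgeR) in P815-M tumors, and the light effects differed by -0.37 between the lines (normal 95% interval -1.89 to 1.15). With 1 library left out, the light difference ranged from 0.17 (without P815-IFNG light replicate 1) to 0.99 in P815-IFNG tumors and from 0.74 to 1.33 in P815-M tumors. P815-IFNG dark exceeded P815-M dark by 0.80 (SE 0.61, adjusted p = 0.571 in edgeR; exact permutation p = 0.1, two-sided). In light, the lines differed by 0.43 (SE 0.56, adjusted p = 0.836 in edgeR), or by -0.26 without P815-IFNG light replicate 1.

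Ptgs2 (chr1:150100031-150108227, plus strand, 11 exon blocks of 4580 bases) encodes cyclooxygenase 2. P815-IFNG libraries held 4.02 and 8.78 CPM in light and 6.52 and 32.8 CPM in dark, while the deep libraries held 50.05 CPM in light and 28.1 CPM in dark. P815-M libraries held 5.71, 2.39 and 9.84 CPM in light and 17.2, 5.73 and 6.17 CPM in dark. The groups overlapped in all 4 comparisons. The log2 difference between P815-IFNG light and dark was -0.54 (SE 0.57, adjusted p = 0.866 in edgeR), -1.65 (SE 0.74) in the 10 libraries and 0.47 without P815-IFNG dark replicate 2. In P815-M tumors it was -0.71 (SE 0.67, adjusted p = 0.727 in edgeR), or 0.017 without dark replicate 1. P815-IFNG was higher than P815-M by 0.77 in light (SE 0.73, adjusted p = 0.760 in edgeR) and by 0.60 in dark (SE 0.59, adjusted p = 0.686 in edgeR), the latter -0.92 without P815-IFNG dark replicate 2.

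Counted together, no member passed the test in any comparison, where a call needed an adjusted p of at most 0.05 and a log2 difference of at least 1 in either direction. Between P815-IFNG light and dark, 0 of the 8 members tested were called by edgeR's quasi-likelihood test and 0 by DESeq2, with 1 (Saa3) at an unadjusted p under 0.05; of all 18804 genes tested, 0.0106% were called and 8.34% had such a p. Between P815-M light and dark, edgeR and DESeq2 called 0 of 8, with 0 under an unadjusted p of 0.05, against 1.03% of all genes called and 12.5% under that p. Between the lines in light, both tools called 0 of 8, with 1 (Saa3) under 0.05, against 0.436% and 11.1% of all genes. In dark, both called 0 of 9, with 0 under 0.05, against 1.54% and 16.3% of all genes. For the difference of the light effects both called 0 of 8, with 1 (Saa3) under 0.05, against 0.016% and 5.73% of all genes. Read against these shares, 0 calls and at most 1 low p among 8 or 9 genes are not a result about the members.

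Groups of libraries that did not overlap gave a similar picture. They were seen for 0 of 9 members between P815-IFNG light and dark (3.75% of all genes), 0 of 9 between P815-M light and dark (18.1% of all genes), 1 of 9 between the lines in light (Hp, by its selection; 16.9% of all genes) and 2 of 9 in dark (Il6 and Tnf; 21.2% of all genes). Comparisons that share a group of libraries are not independent of each other.

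The deep pair and the remaining P815-IFNG libraries gave opposite directions for Hp, Il1b, Il6 and Ptgs2, lower in light in the 4 libraries of lower depth and higher in light in the deep pair, while Saa3 and Tnf were higher in light in both. In the deep pair, 9 of 9 members had a higher level in light and 5 of 9 (Hp, Saa3, Lcn2, S100a8 and S100a9) were at least 2-fold higher, against 8.48% of the 16720 genes with at least 14 counts in the pair. Across those genes 45.7% were higher in light and the median ratio was 0.968. Hp was chosen on values that include the deep light library, and S100a8 and S100a9 passed the test's filter only through the deep pair. The counts of members given here were fixed in part by that choice and are not a result about the members. The ratio was 1.49 for Tnf (95% counting interval 1.23 to 1.82) and 1.78 for Ptgs2 (1.66 to 1.91). These intervals cover counting error between 2 libraries only and have no replicate check, and the deep light library also had the higher adipocyte, neutrophil, macrophage, keratinocyte and mast cell marker sums of the pair, with fibroblast and muscle sums lower. The part of those cells in the deep-pair ratios was not tested.

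**Figure D4:**
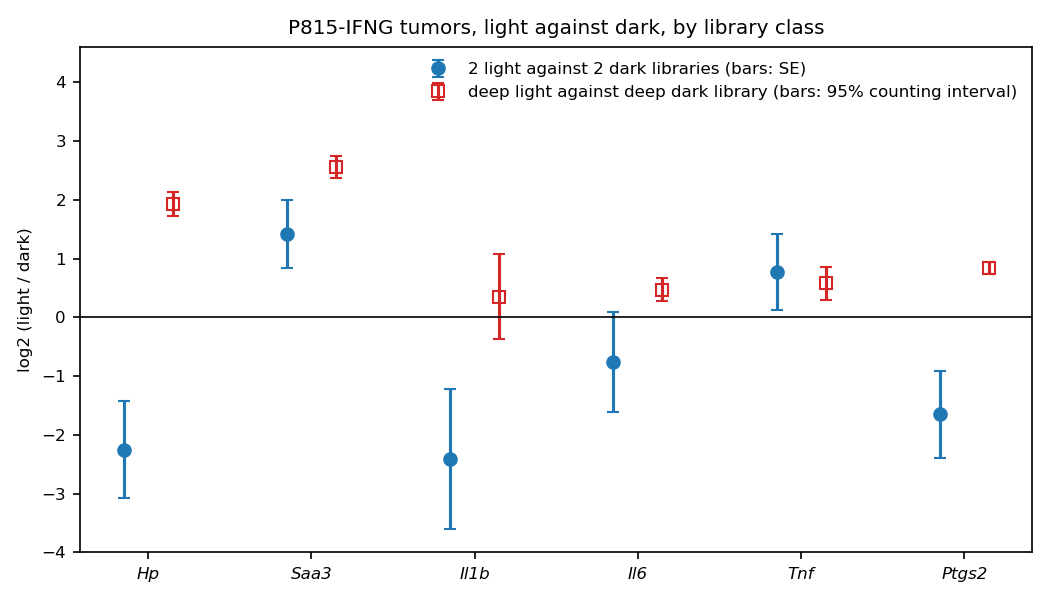
Log2 ratio of light to dark in P815-IFNG tumors for the 6 members above the floor in every library of at least 1 group; filled circles compare the 2 light with the 2 dark libraries of lower depth (bars, SE) and open squares compare the deep pair (bars, 95% counting interval). Hp, Il1b, Il6 and Ptgs2 lie below 0 for the first and above 0 for the second, whereas Saa3 (1.42 in the 10 libraries) and Tnf (0.77) lie above 0 for both.

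Other genes of the same pathways gave few calls. Of 19 further liver acute-phase proteins, 10 were tested and 0 were called in any comparison; Crp, Apcs, Fga, Fgb, Fgg, A2m and Hamp were at 0 in the 10 libraries, and Serpina3n, Cp and Lbp led the list at 57.9, 55.9 and 40.4 CPM there. Their median log2 difference between P815-IFNG light and dark was 0.11, against -0.0325 over all genes tested. Of 13 acute-phase regulators and IL-6 family genes, none was called between P815-IFNG light and dark. Cebpa, which encodes the liver and myeloid factor C/EBPα, rose with light in P815-M tumors by 1.29 (SE 0.28, adjusted p = 0.0241 in edgeR) and was higher in P815-IFNG than in P815-M dark tumors by 1.37 (SE 0.28, adjusted p = 0.0126 in edgeR). Without the depth term, 0 genes were called between P815-M light and dark, so the first call was lost. Of 12 macrophage markers, 12 and 10 also had a higher fitted level in these comparisons, and their part in the Cebpa values was not tested. Lif, a cytokine of the IL-6 family, was lower in P815-IFNG than in P815-M dark tumors, with a log2 difference of -1.51 (SE 0.32, adjusted p = 0.0137 in edgeR) and means of 55.0 ± 37.2 and 203 ± 104 CPM (SD, n = 3). The P815-IFNG mean of Lif includes the deep dark library, which is not shown apart here. Stat3 averaged 126 CPM and Cebpd 113 CPM in the 10 libraries, with no call. Calls between the lines also fell without the depth term, from 290 to 2 genes in dark and from 82 to 3 in light. Whether the dark calls of Cebpa and Lif, or the calls of Nfkbia and Ptgis below, were among those left is not given here.

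Of 13 NF-κB subunits and feedback targets, Nfkbia, the inhibitor that NF-κB itself induces, was called between the lines. In P815-IFNG tumors its mean was 42.9 ± 18.6 CPM with light and 33.9 ± 14.1 CPM without, and in P815-M tumors 14.5 ± 2.05 CPM with light and 11.6 ± 2.44 CPM without (SD, n = 3). Both P815-IFNG means include a deep library, which is not shown apart here, so they are not like-for-like with the P815-M means. The log2 difference between the lines was 1.19 in light (SE 0.26, adjusted p = 0.0394 in edgeR) and 1.16 in dark (SE 0.26, adjusted p = 0.0212 in edgeR), and between light and dark within P815-IFNG it was 0.35 (SE 0.22, adjusted p = 0.704 in edgeR). The other 12, Nfkb1, Nfkb2 and Icam1 among them, were not called.

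Of 18 genes of IL-1 and TNF signalling 0 were called in any comparison, with a median log2 difference between P815-IFNG light and dark of 0.023. Of 9 neutrophil-attracting chemokines and colony-stimulating factors 8 were tested and 0 called; Ccl3 led them at 6.36 CPM and differed by 2.04 between light and dark in P815-M tumors (SE 0.58, adjusted p = 0.0995 in edgeR), and the list's median in P815-IFNG tumors was 0.64. Of 16 genes of prostaglandin synthesis and reception 15 were tested. Ptgis, the prostacyclin synthase, was lower in P815-IFNG than in P815-M dark tumors (log2 difference -1.16, SE 0.25, adjusted p = 0.0178 in edgeR). Ptger1 and Ptger4 led the list at 1886 and 141 CPM in the 10 libraries and were not called. The whole list summed to only 622 and 668 CPM in the deep light and dark libraries, so the Ptger1 level of the 10 did not hold there. Of 9 receptors for the member proteins 8 were tested and 0 called. Among them, Cd163, the haptoglobin-hemoglobin receptor of macrophages, averaged 325 CPM and Cd14 16.7 CPM in the 10 libraries. The whole receptor list summed to 105 and 66.1 CPM in the deep light and dark libraries. Of 10 genes of hemoglobin, heme and iron handling 8 were tested and 0 called; Hmox1, the heme oxygenase, averaged 61.9 CPM.

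Macrophage markers, 12 listed and 12 tested, had a higher fitted level in P815-M light than dark for 12 of 12 (median log2 difference 0.86), with C1qa and Lyz2 called, and were higher in P815-IFNG than in P815-M dark tumors for 10 of 12, with C1qa, C1qb and C1qc called. Their summed level was 1737 to 2000 CPM in P815-M light and 790 to 1123 CPM in P815-M dark, 1441 to 2191 CPM in the P815-IFNG libraries of lower depth, and 913 and 750 CPM in the deep light and dark libraries. Tnf, a macrophage product, had the same order of group means in P815-M tumors, and the part of macrophages in its level was not tested. Of the fibroblast list, Dcn and Lum were called higher in P815-IFNG than in P815-M dark tumors, with the sum at 12442 CPM in P815-IFNG dark replicate 2, the library with the most Hp, against 3797 to 6167 CPM elsewhere. The muscle gene Myh4 was called in all comparisons but that of light and dark in P815-M tumors. The keratinocyte list of 9 summed to 3.13 to 11.01 CPM in the 10 libraries, with Krt10 at 5 to 22 counts in each and Sfn at 0 to 11, while Krt5, Krt14, Krt1 and Trp63 were at 0. Neither the keratinocyte nor the hepatocyte nor the mast cell list had a call.

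Among the 10 libraries, the 36 pairs of members were compared on log2 CPM, and 0 had an adjusted p of at most 0.05. The 3 pairs with the lowest p of r follow. Hp and Il1b had the highest r (Pearson r = 0.74, permutation p = 0.0162, adjusted p = 0.525; Spearman rho = 0.76, permutation p = 0.0148, adjusted p = 0.273), whose r was 0.59 without the 2 libraries farthest from the median of Hp. Il6 and Ptgs2 had r = 0.65 (permutation p = 0.0416, adjusted p = 0.525; rho = 0.76, permutation p = 0.0152, adjusted p = 0.273), and r was 0.41 without 2 libraries. Saa3 and Tnf had r = 0.70 (permutation p = 0.0437, adjusted p = 0.525; rho = 0.48, permutation p = 0.167, adjusted p = 0.994), which fell to 0.11 without 2 libraries and so rested on those. These libraries come from 4 groups, and within-group values are too few for a correlation of their own. Of 11992 other genes with at least 5 CPM on average, the patterns most like that of Hp over the 10 libraries were Asb1 (r = 0.95), Atxn1 (0.93) and Arntl2 (0.91), and those most like Il1b were Tiprl (0.91), Ptprb (0.89) and Rbm34 (0.89). Il1b was under 3 counts in 7 of the 10 libraries, so its pattern rests on few counts. These r are the highest among 11992 genes and were not tested. For S100a8, which had counts in 1 of the 10 libraries, the leading genes Psmc5, Tph1 and Tmem11 (r = 0.87, 0.86 and 0.86) mark only that library.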

How the data were processed

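Whole-tumor mRNA libraries (TruSeq Stranded mRNA kit) were read as the read counts per gene that the authors deposited, 1 table per library; the submitters' processing notes name mm10, STAR 2.7.9a, HTSeq 0.13.5 and DESeq2 1.32.0. The annotation release is not given in the sources used here, and the effect of the counting's strand setting was not tested. The members and all gene lists were chosen with earlier results of these data known. The 13 mitochondrial rows were left out, and 18804 genes with at least 10 counts over the 12 libraries were tested with edgeR 4.0.16 (R 4.3.3; quasi-likelihood test, TMM scaling, Benjamini-Hochberg adjustment) on group means plus a term for libraries over 10000000 counts. Calls needed an adjusted p of at most 0.05 and a log2 difference of at least 1. The fit was tested on simulated data. Alternatives were no depth term, the 10 libraries alone, ComBat-seq (sva 3.50.0), DESeq2 1.42.0, its size factors, no filter, filterByExpr, a replicate block and each library left out. Libraries of a group come from separate mice. Named genes were the 9 members, from each pathway list the called genes and the 3 with the highest mean CPM over the 10 libraries, from each marker list those 3 and markers at 0, and the 3 genes most correlated with Hp, S100a8 and Il1b; the deep-pair, Retnlg, Ly6g, Alb, Saa1, Ifng and Cxcl10 values and called markers were added after the data were seen. Values of Saa2, Il1r2, Mmp8, Camp, Mpo and the module, and the prostaglandin and receptor list sums, were also added after the data were seen. Counting intervals were exact (Clopper-Pearson) and, like the floor of 3 counts, cover counting error only. Gene positions are from GENCODE M21 (GRCm38), promoters from RefSeq.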

Additional observations from a re-analysis of the deposited data

How the results depend on the processing

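With 2 to 3 libraries a group, 2 of them deep, small effects and genes near 3 counts could not be resolved, and the group difference in P815-IFNG tumors rested partly on how the deep pair was treated. The causes of the changes below were not tested, beyond the fewer libraries or genes that a setting uses.

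The number of genes called between P815-IFNG light and dark, 2, was 0 without the depth term, 1 in the 10 libraries, 157 under ComBat-seq, 58 under DESeq2, 211 with no filter, 1 with filterByExpr and 1 to 52 with 1 library left out. Between P815-M light and dark, 194 became 0 without the term, 293 under DESeq2, 429 with no filter and 61 to 237 with 1 library left out. Between the lines in light, 82 became 3, 39 in the 10 libraries, 262 under ComBat-seq, 245 with no filter and 29 to 161 with 1 left out, and in dark 290 became 2, 570 under ComBat-seq, 640 with no filter and 153 to 444. The difference of light effects, 3, became 0 without the term, 40 under ComBat-seq, 23 under DESeq2, 1 with its size factors, 203 with no filter, 1 with filterByExpr and 1 to 14. With the replicate number as a replicate block, which the labels do not tie to a shared mouse or day, the first count was 62 and the last 16, and the other 3 stayed within 1.5 times. The correlation of deviations of same-numbered libraries was over 0.1 in all 3 pairs of no 2 groups. Between P815-IFNG light and dark that could not be reached, because the depth term fixes the deep pair's correlation at -1. Nothing about a block is concluded for those groups.

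Members called stayed at 0 except for Saa3, called between P815-IFNG light and dark under ComBat-seq (2.03, adjusted p = 1.54e-05), with no filter (1.83, adjusted p = 3.15e-12) and without P815-IFNG light replicate 2, between the lines in light in the same 3 settings (1.74, 1.63 and 2.33), and in the difference of light effects with no filter (1.51, adjusted p = 0.00282), and for S100a8, lower in P815-IFNG than P815-M dark under ComBat-seq, which had 3 counts in all in the 10 libraries and passed the filter only through the deep pair; 1 member each, so leaving out 1 library gave 0 to 1. All are edgeR fits.

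Directions turned as follows. Hp between P815-IFNG light and dark became 0.66 under ComBat-seq, and -2.26 to 0.26 with 1 library left out. Il6 became 0.023 without the term and ranged from -0.76 to 0.13, and in P815-M tumors from -1.75 to 0.15; for Ptgs2 these ranges were -1.65 to 0.47 and -1.30 to 0.017. Tnf between the lines in light ranged from -0.26 to 0.83. In dark, Hp ranged from -0.25 to 2.60, Ptgs2 from -0.92 to 1.33 and Saa3 from -0.40 to 0.43, with -0.12 without the term and -0.0076 under ComBat-seq. The difference of light effects was -0.44 for Il6 in the 10 libraries (-0.42 to 1.58 with 1 left out) and for Ptgs2 -0.93 there, -0.038 under DESeq2 and -0.92 to 1.18 with 1 left out.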
